A study of Saccharomyces cerevisiae with 3 samples.

Results

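The comparison described here is the first response of sporulating yeast to rich medium, taken as the change of every gene between 20 minutes in YPD and the last sample in sporulation medium (SPM). The change of a gene is its log2 Cy5/Cy3 ratio on the array of 20 minutes in YPD minus that on the array of 6 hours in SPM. All 6218 genes of the array were considered, and 6061 of them carry a change. For the other 157 genes, every spot of at least 1 array was too dim in both channels to give a ratio, on both arrays in 78 genes, on the 20-minute array in 29 and on the 6-hour array in 50. The last set holds *HXT7*, a hexose transporter gene, whose mean Cy3 signal was 37855 at 20 minutes and 188 at 6 hours.

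The cells of the YPD sample were diploid SK1 yeast homozygous for a deletion of *SUM1* (Δ*sum1*), kept for 6 hours in SPM and then for 20 minutes in YPD, and the cells of the SPM sample were the same strain at 6 hours. SK1 is a laboratory background that sporulates fast and evenly, and Sum1 is a repressor that keeps genes of the middle of sporulation silent in growing cells. Each array carried RNA of 1 culture in Cy5 against a common Cy3 reference. The reference RNA came from wild-type SK1 cells during growth in YPA, in which acetate replaces the glucose of YPD. The labeling protocol in the sample labels assigns the dyes the opposite way, and the channel labels and scanner headers were followed. With 1 array at each time no test was possible and no p-value is given. No Δ*sum1* culture was left in SPM for another 20 minutes, so the effects of medium, elapsed time and slide cannot be told apart. A lower ratio in a mixed culture cannot be told apart from fewer cells of a type.

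SPM offers acetate and no nitrogen, and cells in it respire, store carbohydrate, degrade protein and run meiosis. YPD offers glucose, amino acids and nucleobases. In growing yeast, glucose acts through the Ras and protein kinase A pathway and nitrogen through the TOR kinases. Both raise the synthesis of ribosomes, the largest investment of a growing cell, and both restrain stress genes driven by the factors Msn2 and Msn4. Glucose also represses genes for the use of other carbon sources through Mig1 and its partners.

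The 12 sporulation markers, genes of the meiotic divisions and the spore wall, all exceeded the reference at least 2-fold on both arrays, with a median log2 ratio of 5.68 at 20 minutes in YPD and 5.38 at 6 hours in SPM. Of 24 haploid-specific and mating genes, 11 exceeded the reference at least 2-fold at 20 minutes and 12 at 6 hours, with median log2 ratios of 0.83 and 0.94. Over all genes, 28.5% exceeded the reference at least 2-fold at 20 minutes and 22.1% at 6 hours. Of the 24 genes, 9 had a spot under the floor for dim signals. The spots of the deleted gene *SUM1* gave log2 ratios of -1.37 ± 0.01 at 20 minutes and -1.76 ± 0.07 at 6 hours, where ± is the SD between 2 spots here and below. The median Cy5 signal of gene spots was 2748 at 20 minutes and 4280 at 6 hours. The Cy3 signals of the shared reference, each array centred on its own median, differed between the arrays with an SD over genes of 0.34 on the log2 scale, and the Cy5 signals with an SD of 1.56. The Cy3 signal differed at least 2-fold in 62 genes. The SD between the 2 duplicate spots of a gene, pooled over genes, was 0.23 for the change. This spread covers spot noise only, because both spots share 1 RNA sample, 1 labeling and 1 slide.

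After 20 minutes, 1179 genes (19.5%) were at least 2-fold higher in YPD than in SPM and 1617 genes (26.7%) were at least 2-fold lower. Changes of at least 4-fold were found in 658 genes that were higher and 418 that were lower. At 8-fold the counts were 369 and 110, and at 16-fold 163 and 32. More genes were thus lower than higher at the 2-fold limit, and more were higher than lower at 4-fold and beyond. The median change over all genes was -0.28, and the middle 50% of genes lay between -1.05 and 0.66.

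Where the distribution is centred matters for the balance of the 2 directions. Of the genes past 2-fold, 42.2% were higher and 57.8% lower. With the changes centred on the median of all genes, 56.0% were higher and 44.0% lower. With the mean of the buffer spots as the floor for dim signals, 25.3% were higher and 74.7% lower, in 5229 genes. The genes nearest the limit had changes of 1.0014 and 0.9991 on the higher side and -1.0011 and -0.9983 on the lower side.

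**Figure D1:**
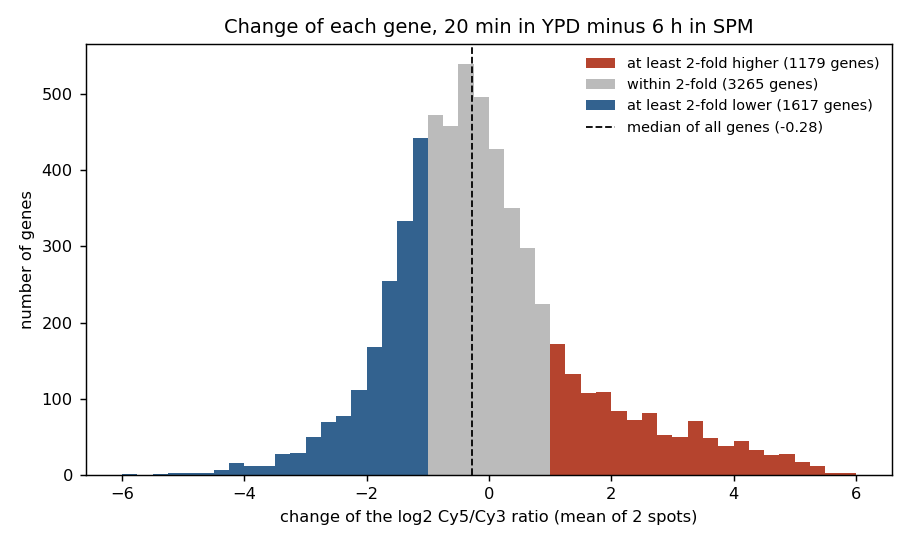
Histogram of the change of 6061 genes, on the log2 scale. The x axis is the change of the log2 Cy5/Cy3 ratio and the y axis the number of genes. The 1179 genes at least 2-fold higher at 20 minutes in YPD extend to 5.97 and the 1617 at least 2-fold lower to -5.80, and the dashed line is the median of -0.28.

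Both spots were past 2-fold in 1082 of the 1179 higher genes and in 1420 of the 1617 lower genes. In the Cy5 channel alone, each array centred on its median, 1098 of the higher genes and 1218 of the lower genes were past 2-fold in the same direction, and 1177 and 1615 had the same sign. At 6 hours, 160 of the lower genes had at least 1 spot above 30000 in Cy5. At 20 minutes, 250 of the higher genes had one.

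The genes that were higher in YPD stood at a median log2 ratio of 1.74 at 20 minutes and -0.62 at 6 hours. At 20 minutes 875 of them exceeded the growing reference at least 2-fold, against 86 at 6 hours. The shares of all genes above it were 28.5% and 22.1%. The genes that were lower stood at a median of -1.35 at 20 minutes and 0.30 at 6 hours. Of these, 955 were at least 2-fold below the reference at 20 minutes, against 223 at 6 hours. The shares of all genes below it were 26.0% and 18.3%. Both sets were picked by the difference between the 2 arrays, so the direction of these shifts was fixed by that choice. Over all genes the SD of the log2 ratio was 1.84 at 20 minutes and 1.47 at 6 hours.

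The 15 genes with the largest increase, among named genes with no spot under a floor, were mostly genes of ribosome synthesis and of nucleotide synthesis. *NSR1*, which encodes yeast nucleolin, had a log2 ratio of 4.23 ± 0.01 at 20 minutes in YPD and -1.64 ± 0.12 at 6 hours in SPM. It was 58.7-fold higher in YPD, a change of 5.88 ± 0.11. Its Cy5 signal was 39064 at 20 minutes and 772 at 6 hours, and its Cy3 signal was 2668 and 2524. *GAR1* and *NHP2*, which encode core proteins of the H/ACA particles that guide pseudouridylation of rRNA, changed by 5.39 ± 0.11 and 5.25 ± 0.38. *MAK16* and *NOP7*, both needed for assembly of the large ribosomal subunit, changed by 5.37 ± 0.29 and 5.25 ± 0.16. *RPC19*, a subunit shared by RNA polymerases I and III, changed by 5.32 ± 0.08. *RPA49*, a subunit of RNA polymerase I, changed by 5.27 ± 0.96, with spots that differed widely at 6 hours. The ribosomal protein genes in this set were *RPS22B* (5.40), *RPS19B* (5.33), *RPS22A* (5.32) and *RPL26B* (5.27).

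The other members, apart from *BRE2*, served small-molecule synthesis. *URA1*, which encodes dihydroorotate dehydrogenase of the pyrimidine pathway, had a log2 ratio of 0.03 ± 0.15 at 20 minutes and -5.50 ± 0.13 at 6 hours. It was therefore level with the growing reference in YPD and 46.2-fold lower in SPM than in YPD. *URA7*, a CTP synthase gene, had 3.71 ± 0.05 at 20 minutes and -1.64 ± 0.10 at 6 hours. *CYS3*, whose enzyme forms cysteine from cystathionine, had 3.22 ± 0.08 and -2.20 ± 0.25. *BRE2*, a subunit gene of the COMPASS complex that methylates histone H3, had 4.83 ± 0.39 and -0.55 ± 0.23, and it belongs to none of the lists used here.

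The 15 genes with the largest decrease were of other kinds, led by a transporter gene, early meiotic genes and genes of fat and carbohydrate use. *CTR3*, which encodes a high-affinity copper transporter, had a log2 ratio of -5.60 ± 0.34 at 20 minutes and 0.20 ± 0.10 at 6 hours and was 55.5-fold lower in YPD. Its Cy5 signal was 492 at 20 minutes and 34172 at 6 hours, while its Cy3 signal was 30190 and 31328. *MEK1*, a meiotic kinase gene, *HOP1*, which encodes a chromosome axis protein, and *DMC1*, which encodes the meiotic recombinase, changed by -5.20 ± 0.31, -4.98 ± 0.03 and -4.37 ± 0.01. *IME1*, the activator of early meiotic genes, changed by -5.11 ± 0.20.

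*CIT3*, a mitochondrial citrate synthase gene, changed by -4.58 ± 0.04. *PEX11*, whose product drives division of peroxisomes, and *CTA1*, peroxisomal catalase, changed by -4.50 ± 0.03 and -4.44 ± 0.38. *HSP42*, a small heat shock protein gene, changed by -4.50 ± 0.33. *PGM2*, the main phosphoglucomutase gene, changed by -4.27 ± 0.37, and *HXK1*, the hexokinase gene used without glucose, by -4.18 ± 0.41. *HFD1*, a fatty aldehyde dehydrogenase gene, changed by -4.22 ± 0.10. *MSC1* (-4.40), *ISF1* (-4.24) and *SPG4* (-4.23) completed the set. In 12 of the 15 genes the ratio at 6 hours lay between -1.40 and 0.20, near the growing reference, and only the 3 meiotic genes *MEK1*, *HOP1* and *DMC1* started far above it.

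**Figure D2:**
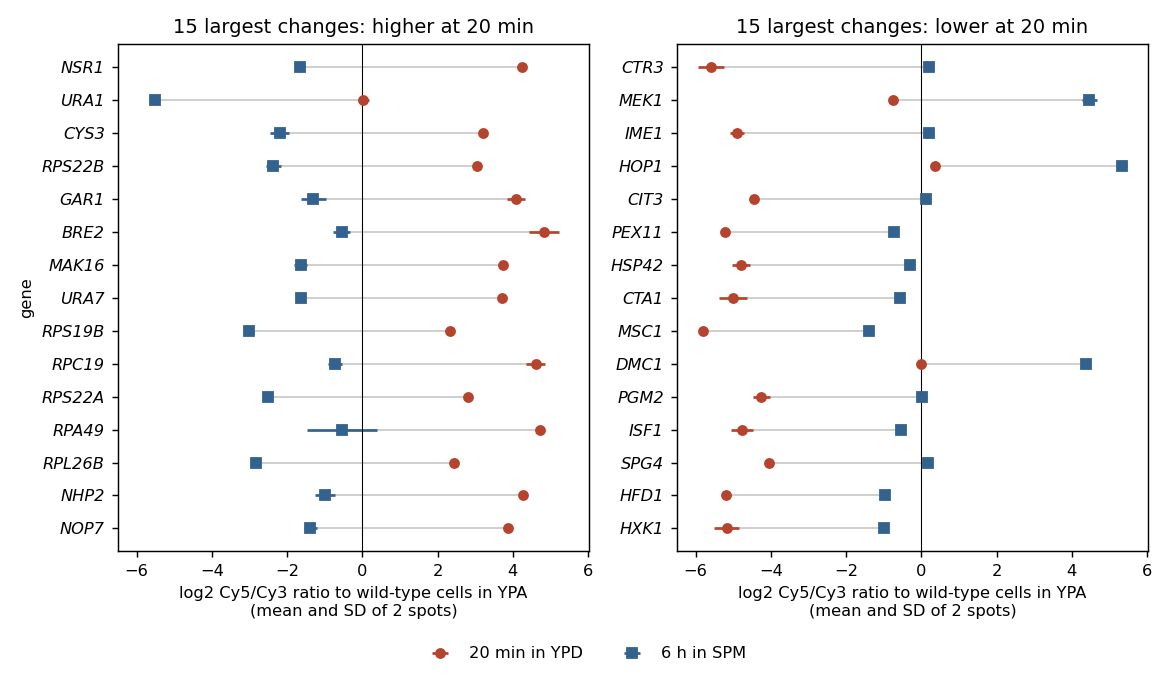
Log2 Cy5/Cy3 ratio to wild-type cells in YPA (x axis) of the 15 named genes with the largest increase (left panel) and the 15 with the largest decrease (right panel); circles are 20 minutes in YPD, squares 6 hours in SPM, and bars the SD of 2 spots. *URA1* is the one gene of the left panel that ends near the reference, at 0.03, and *MEK1*, *HOP1* and *DMC1* are the ones of the right panel that start above 4.

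Most genes that build the ribosome were higher. The small subunit processome cuts and folds the precursor of the small subunit RNA, and 62 of its 66 genes were at least 2-fold higher, against 19.5% of all genes, and 1 was lower. Their median change was 3.42, where that of all genes was -0.28. *NOP58*, a core box C/D protein gene, was 28.5-fold higher, with log2 ratios of 2.50 ± 0.08 at 20 minutes and -2.33 ± 0.07 at 6 hours. *UTP14* and *UTP15* changed by 4.72 ± 0.15 and 4.44 ± 0.13. The lower gene was *UTP30*, at -1.21 ± 0.16, and its change was -0.76 in the Cy5 channel alone.

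Of the assembly factors of the large subunit, 74 of 78 genes were at least 2-fold higher (94.9%, against 19.5% of all genes) and 0 lower. Their median was 3.31. *NSA2* had a log2 ratio of 3.67 ± 0.11 at 20 minutes and -1.36 ± 0.01 at 6 hours. *MRT4*, an assembly factor of the stalk region, had the largest increase of any gene, at least 62.6-fold at the recovered floor, since 1 of its spots was at the Cy5 floor at 6 hours. It was chosen after its values were seen. *RPF2* (-0.79 ± 0.21) and *DRS1* (-0.41 ± 0.07) were the members with the most negative values. Of 7 genes of nucleolin and the H/ACA particles, 6 were higher, with a median of 4.31. The remaining one, *SRP40*, a nucleolar chaperone gene, changed by -0.75 ± 0.10.

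RNA polymerases I and III make the ribosomal and transfer RNAs. Of 40 genes listed for them, 26 were at least 2-fold higher and 3 lower. The subunits and the factors differed in their counts. Of 23 polymerase subunits, those shared with RNA polymerase II included, 22 were higher and 0 lower, with a median of 3.30. Of 17 initiation factors and regulators, 4 were higher and 3 lower, against 19.5% and 26.7% of all genes. Their median was -0.17. *RPA135*, the second largest subunit of polymerase I, had log2 ratios of 2.05 ± 0.12 at 20 minutes and -2.33 ± 0.11 at 6 hours. The subunit that was not higher was *RPC37*, at -0.03, with 1 spot at the Cy5 floor at 20 minutes. The lower members were *TFC8* (-2.25 ± 0.07) and *TFC6* (-1.20 ± 0.04), which encode subunits of factor TFIIIC, and *MAF1* (-2.04 ± 0.07), which encodes the repressor of polymerase III. The change of *TFC6* was inside 2-fold, at -0.96, in the Cy5 channel alone. *RRN3*, whose product recruits polymerase I, was higher at 2.54 ± 0.16 and was picked after its values were seen.

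The genes of the cytosolic ribosomal proteins had the highest median of the large lists, 3.88. Of 131 genes, 124 were at least 2-fold higher (94.7%, against 19.5% of all genes) and 1 lower (0.763%, against 26.7%). Genes of the large subunit had a median of 3.80 and those of the small subunit 3.94. Their median log2 ratio was 1.60 at 20 minutes in YPD and -2.37 at 6 hours in SPM, so the list crossed the level of growing cells. Of these genes, 117 had a spot above 30000 in Cy5 at 20 minutes. With such spots omitted only 14 of the 131 genes were left, since the omission removes the genes brightest in YPD, and the median of those 14 was 1.25.

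Most ribosomal proteins of yeast come from an A and a B gene, often nearly identical, and PCR products of such copies can share signal. Of 54 A and B pairs, both genes were at least 2-fold higher in 47 and only 1 in the other 7. The median gap between the changes of a pair was 0.66, and 19 pairs were more than 2-fold apart. The widest gap was that of *RPS21*. *RPS21B* changed by 4.60 ± 0.07, whereas *RPS21A* changed by -1.17 ± 0.28 and stood at a log2 ratio of 1.87 at 20 minutes and 3.04 at 6 hours. The change of *RPS21A* fell inside 2-fold under 4 of the other settings. *RPL8A* changed by 4.80 ± 1.09 and *RPL8B* by 0.88 ± 0.24. *RPS19B* changed by 5.33 ± 0.22 and *RPS19A* by 0.23 ± 0.01, the last with a Cy3 spot at the floor on each array. These pairs, apart from *RPS19B* and *RPS21A*, were chosen after their values were seen.

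**Figure D3:**
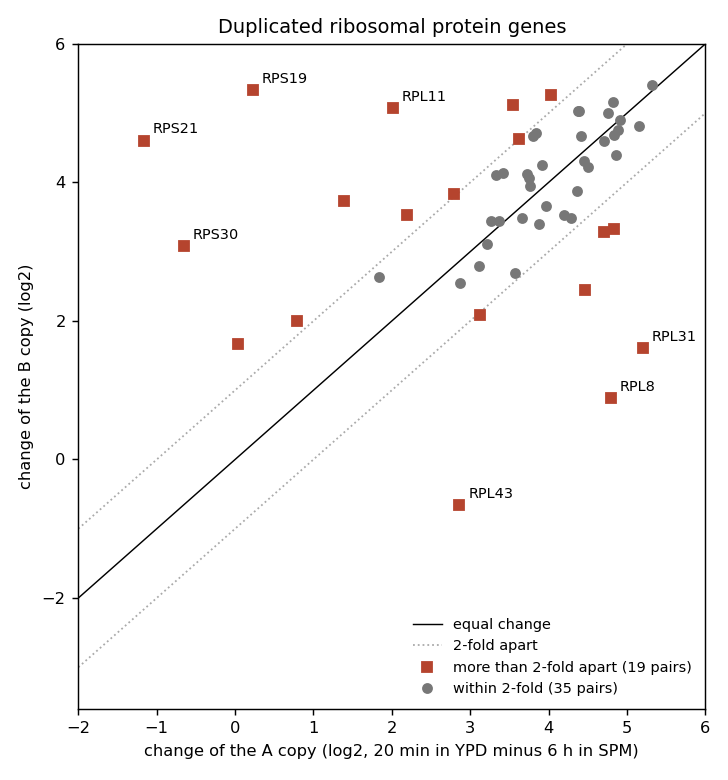
Change of the B gene (y axis) against that of the A gene (x axis) for 54 pairs of ribosomal protein genes, both on the log2 scale as 20 minutes in YPD minus 6 hours in SPM; the solid line marks equal change and the dotted lines 2-fold. Squares are the 19 pairs more than 2-fold apart, of which *RPS21* lies farthest from the line, and circles the other 35.

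Ribosomal proteins of the mitochondrion did not share this pattern. Of 67 genes, 2 were at least 2-fold higher (2.99%, against 19.5% of all genes) and 7 lower (10.4%, against 26.7%). The median of -0.30 was close to that of all genes. The 2 were *MRP2* (3.64 ± 0.07) and *MRPL17* (1.19, inside 2-fold under 2 of the other settings), and the most negative was *MRPL32* (-1.70 ± 0.17). Of 45 translation factor genes, 31 were higher (68.9%) and 1 was lower (2.22%), with a median of 1.79. *PRT1*, a subunit gene of initiation factor eIF3, changed by 3.50 ± 0.15, and *STM1*, which encodes a ribosome-bound protein, by 3.52 ± 0.37. *GCD10*, a subunit gene of a transfer RNA methyltransferase, changed by 4.42 ± 0.12. The lower one was *GCN3*, a regulatory subunit gene of factor eIF2B, at -1.07 ± 0.03, a value that fell inside 2-fold under 3 of the other settings. Of 18 cytosolic aminoacyl-tRNA synthetase genes, 14 were higher (77.8%), 0 were lower and the smallest change was 0.55. *KRS1* (lysine), *FRS1* (phenylalanine) and *WRS1* (tryptophan) changed by 3.88 ± 0.09, 3.83 ± 0.25 and 3.03 ± 0.13.

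Chaperone genes went both ways. Of 37 heat shock and chaperone genes, 15 were at least 2-fold lower (40.5%, against 26.7% of all genes) and 4 were higher (10.8%, against 19.5%). The higher ones included the chaperones that bind new chains at the ribosome. *ZUO1* had log2 ratios of 1.85 ± 0.02 at 20 minutes and -2.08 ± 0.07 at 6 hours, and *SSZ1* had 1.35 ± 0.19 and -2.39 ± 0.10. *SSB2*, their Hsp70 partner gene, changed by 2.13 ± 0.18, and its near-identical copy *SSB1* by 0.34 ± 0.05. The lower ones included *HSP42*, given above, *HSP78* of the mitochondrion (-2.87 ± 0.16) and the cochaperone gene *STI1* (-2.73 ± 0.02).

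Genes of nucleotide synthesis were higher in most cases. Of 34 purine and one-carbon genes, 21 were at least 2-fold higher (61.8%, against 19.5% of all genes) and 4 lower (11.8%, against 26.7%). Their median was 1.48. *IMD4*, which encodes the IMP dehydrogenase that commits purines to GTP, had log2 ratios of 3.78 at 20 minutes and -1.41 ± 0.11 at 6 hours. *IMD2* and *IMD3*, which are nearly identical to it and may share its signal, changed by 3.54 and 3.41. *GUA1*, the next gene of the pathway, had 2.30 ± 0.03 at 20 minutes and -2.36 ± 0.04 at 6 hours. *APT1*, which recovers adenine, changed by 4.00 ± 0.02. All 5 genes of PRPP synthetase, which makes the ribose donor of nucleotides, were higher, with changes between 1.40 and 3.31. The lower members included *GCV1* (-3.49 ± 0.13) and *GCV2* (-2.50 ± 0.04), which encode parts of the glycine cleavage system.

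Of 19 pyrimidine genes, 10 were higher (52.6%, against 19.5% of all genes) and 3 lower (15.8%, against 26.7%). Their median was 1.15. After *URA1* and *URA7* came *URA5*, an orotate phosphoribosyltransferase gene, at 3.33 ± 0.08. The most negative was *YNK1*, a nucleoside diphosphate kinase gene, at -3.39 ± 0.27, followed by *PPR1*, the activator of the pathway, at -2.28, and *URA8*, the second CTP synthase gene, at -1.35. The 2 CTP synthase genes thus differed in sign, *URA7* with 5.34 and *URA8* with -1.35. NAD synthesis showed 3 higher and 3 lower genes among 16, or 18.8% each, against 19.5% and 26.7% of all genes.

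Of 37 genes of sulfur amino acid metabolism, 19 were at least 2-fold higher (51.4%, against 19.5% of all genes) and 3 lower (8.11%, against 26.7%). Their median was 1.14. *MET17*, whose enzyme fixes sulfide into homocysteine, had log2 ratios of 1.31 ± 0.01 at 20 minutes and -2.25 ± 0.40 at 6 hours. *SAM4*, a homocysteine methyltransferase gene, changed by 3.33 ± 0.32. *JLP1*, which serves growth on sulfonates, changed by -1.45, or -0.98 in Cy5 alone. Of 79 genes for the other amino acids, 30 were higher (38.0%, against 19.5% of all genes) and 11 lower (13.9%, against 26.7%). Their median was 0.57. *ASN1* (asparagine synthetase), *THR1* (homoserine kinase) and *ARG8* (arginine synthesis) changed by 3.10 ± 0.22, 3.06 ± 0.16 and 2.82 ± 0.04. At the other end stood *ARO9*, an aromatic aminotransferase gene that also serves breakdown of these amino acids, with -4.03 ± 0.06, and *AGX1*, which forms glycine from glyoxylate, with -2.70 ± 0.05.

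Of 22 amino acid permease genes, 5 were at least 2-fold higher (22.7%, against 19.5% of all genes) and 1 was lower (4.55%, against 26.7%), with a median of 0.27 that was -0.15 with the buffer mean as the floor. *HIP1*, a histidine permease gene, changed by 2.42 ± 0.24, and *TAT2*, a permease gene for aromatic amino acids, by 1.54 ± 0.23, or 0.97 with the buffer mean as the floor. Of 38 genes under nitrogen catabolite repression, which are silent while rich nitrogen sources last, 13 were lower (34.2%) and 5 higher (13.2%), with a median of -0.75. *PUT1*, the first gene of proline breakdown, had log2 ratios of -4.39 ± 0.01 at 20 minutes and -0.64 ± 0.05 at 6 hours. *CAR1* (arginase) and *DAL2* (allantoicase) changed by -3.03 ± 0.18 and -2.84 ± 0.05. *GAP1*, the general permease gene and a standard of this regulation, was picked after the fact and changed by 0.24 ± 0.05, with log2 ratios of 1.01 and 0.77 and a sign of the change that turned under 3 of the other settings. *DUR12*, a urea amidolyase gene, had 2.25 ± 0.15, of which 1.35 was seen in Cy5 alone, since its Cy3 signal was 9500 at 20 minutes and 22634 at 6 hours.

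*HXT1*, the low-affinity carrier of high glucose, had log2 ratios of 2.46 ± 0.03 at 20 minutes and -0.89 ± 0.06 at 6 hours and was 10.2-fold higher in YPD. *HXT3* and *HXT4* changed by 2.82 ± 0.14 and 1.87 ± 0.08. *HXT5*, the carrier of slow or arrested growth, changed by -2.41 ± 0.32, with ratios of -2.49 and -0.08. *HXT16* (-1.87 ± 0.36) and *HXT13* (-1.50 ± 0.15) were also lower, and products of these near-identical copies can share signal. Over 21 transport genes 5 were higher and 6 lower, which is 23.8% and 28.6%, against 19.5% and 26.7% of all genes. The list median was 0.30, and it was -0.26 with the buffer mean as the floor.

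The hexokinase genes showed a similar contrast. *HXK2*, the hexokinase of growth on glucose, had log2 ratios of -0.30 ± 0.12 at 20 minutes and -2.32 ± 0.10 at 6 hours, while *HXK1*, given above, was lower. The genes of the kinases that make the allosteric activator of phosphofructokinase differed in sign too, with 3.17 ± 0.09 for *PFK27* and -2.38 ± 0.27 for *PFK26*. *HXK2* was chosen after its values were seen.

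Of 30 glycolysis and fermentation genes, 7 were at least 2-fold higher (23.3%, against 19.5% of all genes) and 10 lower (33.3%, against 26.7%). Their median was -0.02. *PGK1*, phosphoglycerate kinase, had log2 ratios of -4.73 ± 0.01 at 20 minutes and -1.34 ± 0.01 at 6 hours. *PDC5*, a pyruvate decarboxylase gene of ethanol formation, changed by 2.40 ± 0.10, and *GCR2*, an activator of glycolytic genes, by 2.69 ± 0.36. The glycolysis median was 0.62 with spots above 30000 omitted and -0.59 with the buffer mean as the floor, so its sign depended on the setting.

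Genes for the use of acetate and for making sugar from it were lower in 17 of 29 cases (58.6%, against 26.7% of all genes). They were higher in 2 (6.90%, against 19.5%), with a median of -1.27. *ALD4*, the mitochondrial aldehyde dehydrogenase gene, had log2 ratios of -4.23 ± 0.32 at 20 minutes and -0.09 ± 0.01 at 6 hours. *CAT2*, which carries acetyl groups on carnitine, had -4.08 ± 0.05 and 0.05 ± 0.08. *MLS1*, malate synthase of the glyoxylate cycle, changed by -3.88 ± 1.31, with spots that disagreed at 20 minutes. *ICL2* had 1 spot at the Cy5 floor in YPD. It was at least 42.4-fold lower there at the floor recovered from the deposited values, and its change was -4.55 with the buffer mean as the floor.

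Other members were inside 2-fold. *PCK1*, phosphoenolpyruvate carboxykinase, changed by -0.34 ± 0.11. *ICL1*, isocitrate lyase and the standard marker of the glyoxylate cycle, changed by 0.36 ± 0.01, with Cy5 signals of 37779 at 20 minutes and 41620 at 6 hours, and its sign turned under 3 of the other settings. *FBP1*, the phosphatase gene of gluconeogenesis, was lower, with 1 spot at the Cy5 floor at 20 minutes. It was at least 6.31-fold lower at the floor recovered from the deposited values, and its change was -1.57 with the buffer mean as the floor. *ICL1*, *ICL2* and *FBP1* were chosen after their values were seen. *ALD6*, the cytosolic aldehyde dehydrogenase gene, was higher at 1.49, a value that fell inside 2-fold with the buffer mean as the floor.

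The citric acid cycle was lower in 19 of 25 genes (76%, against 26.7% of all genes) and higher in 1 (4%, against 19.5%). Its median was -1.50. *FUM1* (fumarase) had log2 ratios of -3.93 ± 0.02 at 20 minutes and -0.12 ± 0.03 at 6 hours, and *IDH1* (isocitrate dehydrogenase) had -3.59 ± 0.21 and -0.24 ± 0.06. All 4 genes counted for succinate dehydrogenase and all 5 of pyruvate dehydrogenase were at least 2-fold lower. The one higher gene was *MAE1*, malic enzyme, which leads carbon out of the cycle to pyruvate, at 2.68 ± 0.18.

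Respiratory chain and ATP synthase genes were lower in 30 of 47 cases (63.8%, against 26.7% of all genes) and higher in 0. They had a median of -1.31 and a narrower spread, from -2.60 to 0.40. By complex, 9 of 11 ATP synthase genes, 8 of 13 genes of cytochrome oxidase and its assembly and 6 of 9 genes of the bc1 complex were lower. *QCR10* of the bc1 complex changed by -2.60 ± 0.15 and *ATP20* of the ATP synthase by -2.33. *HAP4*, the activator of respiratory genes, changed by 0.40 ± 0.12, a value whose sign turned under 3 of the other settings.

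Reserve carbohydrate genes were lower in 12 of 24 cases (50%, against 26.7% of all genes) and higher in 1 (4.17%, against 19.5%). Their median was -1.05. Besides *PGM2*, *GIP2*, a phosphatase regulator of glycogen synthase, had log2 ratios of -2.33 ± 0.03 at 20 minutes and 0.72 at 6 hours, and *ATH1*, acid trehalase, changed by -2.61 ± 0.05. The higher one was *PCL8*, at 3.01 ± 0.15, a cyclin gene whose kinase inhibits glycogen synthase.

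Stress genes driven by Msn2 and Msn4 were lower in 37 of 62 cases (59.7%, against 26.7% of all genes) and higher in 3 (4.84%, against 19.5%). Their median was -1.42. After *MSC1* and *SPG4* came *MCR1*, a mitochondrial cytochrome b5 reductase gene, at -3.49 ± 0.15. *GRE2*, a reductase gene, went the other way, with a change of 3.77 ± 0.21. The other higher ones, *RIM15* and *ECM4*, fell inside 2-fold under 3 of the other settings each.

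**Figure D4:**
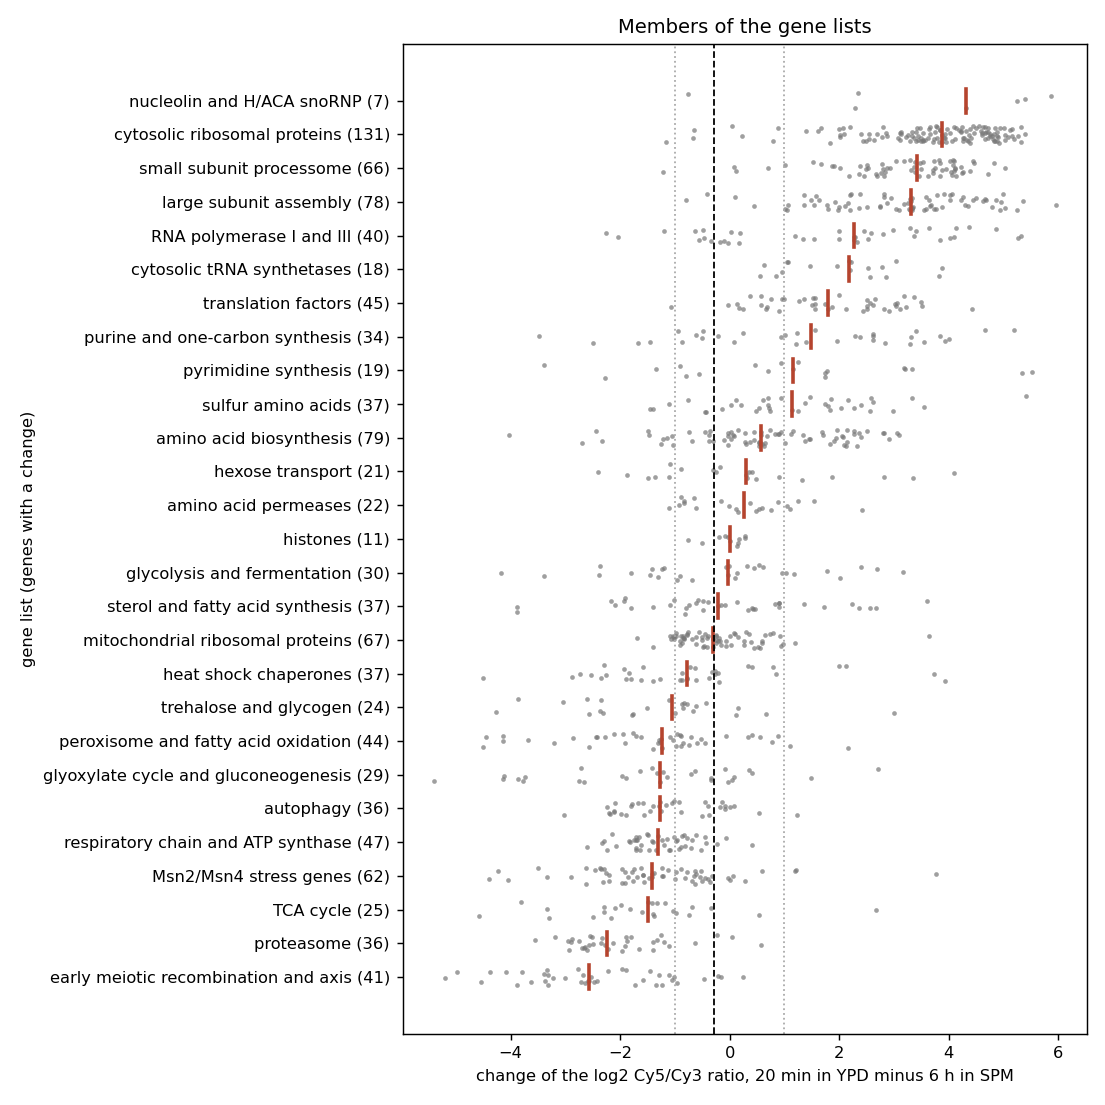
Change of each member (points, with vertical jitter) of 27 gene lists (y axis, ordered by median, with the number of genes that carry a change), on the log2 scale as 20 minutes in YPD minus 6 hours in SPM. Red bars are list medians, the dashed line is the median of all genes at -0.28 and the dotted lines mark 2-fold. Lists of ribosome synthesis lie at the top, with cytosolic ribosomal proteins at 3.88, and early meiotic genes at the bottom, at -2.57.

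Peroxisomes house the oxidation of fatty acids. Of 44 genes, 25 were at least 2-fold lower (56.8%, against 26.7% of all genes) and 2 higher (4.55%, against 19.5%). Their median was -1.24. The peroxins, which build the organelle, had a median of -0.99 with 13 of 26 lower, and the other genes, mostly enzymes, had -2.20 with 12 of 18 lower. *POT1*, the thiolase of this pathway, had log2 ratios of -4.75 ± 0.05 at 20 minutes and -0.60 ± 0.03 at 6 hours. *ANT1*, the peroxisomal ATP carrier, was higher at 2.15 ± 0.12, with 1.21 in Cy5 alone, and its Cy3 signal was 7208 at 20 minutes and 17720 at 6 hours.

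Of 37 membrane lipid genes, 18.9% were higher and 27.0% lower, close to the 19.5% and 26.7% of all genes. The 26 ergosterol genes among them had a median of -0.04, with 6 higher and 4 lower, the lowest being *HMG2* at -2.10. *ERG3*, *ERG1* and *ERG11* changed by 3.60 ± 0.16, 2.68 ± 0.10 and 2.56 ± 0.23, and *ERG3* had log2 ratios of 0.38 ± 0.15 at 20 minutes and -3.22 ± 0.01 at 6 hours. *OLE1*, the only fatty acid desaturase gene of yeast, had -4.09 ± 0.06 at 20 minutes and -0.21 ± 0.02 at 6 hours. *INO1*, which makes inositol phosphate, had -3.14 ± 0.06 and 0.75 ± 0.23, and *CHO1*, phosphatidylserine synthase, changed by -2.17 ± 0.10.

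Of 36 genes of copper and iron uptake, 10 were lower (27.8%, against 26.7% of all genes) and 4 higher (11.1%, against 19.5%). Apart from *CTR3*, *FIT2*, a cell wall protein gene of iron uptake, changed by -1.69 ± 0.15 and *MAC1*, the activator of copper uptake genes, by -1.65, or -0.77 with the buffer mean as the floor. *FRE4*, a ferric reductase gene, changed by 2.99 ± 0.31, and *FET3*, the copper-bearing oxidase of iron uptake, by 1.83 ± 0.06. Phosphate and zinc genes gave 5 higher and 5 lower of 26, or 19.2% each, against 19.5% and 26.7% of all genes. Among them, *ZRT2*, a zinc carrier gene, changed by 1.72 ± 0.15 and *PHO8*, the vacuolar phosphatase, by -2.48 ± 0.15.

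Genes that break down protein were lower together. Of 36 proteasome genes, 32 were at least 2-fold lower (88.9%, against 26.7% of all genes) and 0 higher. Their median was -2.24. All 14 genes of the core particle were lower, with changes between -2.94 and -1.12, and 16 of 18 of the regulatory particle. *RPN3* had log2 ratios of -3.07 ± 0.04 at 20 minutes and 0.48 ± 0.04 at 6 hours, and *RPT4* and *RPN2* changed by -3.19 ± 0.02 and -2.96 ± 0.19. *RPN4*, the activator of proteasome genes, was picked after its values were seen and changed by -2.21. *RPN10*, the ubiquitin receptor gene, changed by 0.57 ± 0.07 and its sign turned with the buffer mean as the floor.

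Autophagy genes were lower in 22 of 36 cases (61.1%, against 26.7% of all genes) and higher in 1 (2.78%, against 19.5%). Their median was -1.27. *ATG22*, an amino acid exporter gene of the vacuole, had log2 ratios of -2.33 ± 0.01 at 20 minutes and 0.70 ± 0.12 at 6 hours. *ATG8*, which encodes the membrane tag of autophagosomes, changed by 0.54 ± 0.04, and its sign turned under 3 of the other settings. Of 12 vacuolar protease genes 6 were lower (50%) and 0 higher. Protease B (*PRB1*) changed by -2.37 ± 0.01, its inhibitor *PBI2* by -3.29 ± 0.29 and aminopeptidase *LAP3* by -2.42 ± 0.05. *PEP4*, protease A, changed by 0.34 ± 0.21, with signs that differed between settings and Cy5 signals of 37456 and 37040.

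Genes of nutrient signalling itself moved in both directions, 16 of 49 higher (32.7%, against 19.5% of all genes) and 11 lower (22.4%, against 26.7%). *MIG2*, a glucose repressor, had log2 ratios of 2.56 ± 0.14 at 20 minutes and -0.84 ± 0.17 at 6 hours. *IFH1*, the coactivator of ribosomal protein genes, had 2.15 ± 0.09 and -1.06 ± 0.09. *TOD6*, which encodes a repressor of ribosome assembly genes, was also higher, at 3.31 ± 0.03. *BCY1*, the regulatory subunit gene of protein kinase A, changed by 0.21 ± 0.20, and its sign turned under 3 of the other settings. The catalytic subunit genes *TPK2* and *TPK3*, named after their values were seen, changed by -2.08 ± 0.06 and 1.57 ± 0.32. *SRV2*, which binds adenylate cyclase, changed by -2.72 ± 0.07, and *SIP2*, a subunit gene of the Snf1 kinase of glucose starvation, by -2.50 ± 0.24.

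Of 24 G1 genes, 2 were at least 2-fold higher and 2 lower, or 8.33% each, against 19.5% and 26.7% of all genes. *CLN3*, the cyclin that starts the cycle, had log2 ratios of -0.38 ± 0.03 at 20 minutes and -3.34 ± 0.02 at 6 hours and was 7.78-fold higher in YPD. *SWI6*, a subunit gene of the G1 transcription factors, changed by 1.86 ± 0.20. *PCL7* and *CDC53* were the lower ones, at -2.27 ± 0.26 and -1.42. The later cyclins *CLN1* and *CLN2*, named after the fact, had -0.39 and -0.02, and the sign of *CLN2* turned under 5 of the other settings.

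DNA replication genes gave 13 lower (22.4%, against 26.7% of all genes) and 3 higher (5.17%, against 19.5%) of 58, with a median of -0.09. All 3 genes of replication protein A, which coats single-stranded DNA, were lower, with -2.28 ± 0.12 for *RFA1*, -1.95 ± 0.15 for *RFA2* and -2.87 ± 0.09 for *RFA3*. *POL12*, a subunit gene of the primase complex, changed by 3.15 ± 0.02. Of the 11 histone genes 0 were past 2-fold in either direction. Of these, 10 had a Cy5 spot above 30000 at 6 hours. Over the whole array, 37 genes had every spot above 30000 in both channels on both arrays. Their changes lay between -0.09 and 0.79, with 0 past 2-fold. Whether such bright signals hide a change was not tested. Genes of B-type cyclins and of mitotic exit were lower in 19 of 40 cases (47.5%, against 26.7% of all genes) and higher in 1 (2.5%, against 19.5%). Of the 40, 14 had a Cy5 spot above 30000 at 6 hours. *MND2*, a subunit gene of the anaphase-promoting complex, changed by -2.69 ± 0.16, *MIH1* by -2.22 ± 0.02 and *CLB5* by -1.93 ± 0.01.

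Of 41 genes of early meiotic recombination and chromosome axes, 36 were at least 2-fold lower (87.8%, against 26.7% of all genes) and 0 higher. Their median log2 ratio was 0.02 at 20 minutes and 2.69 at 6 hours. The 59 genes for spore walls and prospore membranes had a median of 4.94 at 20 minutes and 4.82 at 6 hours. Among them 4 were higher (6.78%, against 19.5% of all genes) and 7 lower (11.9%, against 26.7%). Of the 59 genes, 45 had a Cy5 spot above 30000 at 6 hours and 26 had a floored spot. The median change of 0.08 was -0.37 with dim genes left out. Of 20 regulators of meiosis, 13 were within 2-fold, 6 were lower (30.0%, against 26.7% of all genes) and 1 was higher. *RIM11*, a kinase gene that acts on Ime1, and *CAK1*, also a kinase gene, were lower, at -3.05 ± 0.07 and -2.15 ± 0.21. *NDT80*, the activator of middle sporulation genes, *SMK1*, a kinase gene of spore wall assembly, and *IME2*, a meiotic kinase gene, were inside 2-fold, at -0.16 ± 0.02, 0.18 ± 0.06 and -0.71 ± 0.04. The Cy3 signal of *NDT80* was under the floor in 1 spot at 20 minutes and in 2 at 6 hours. At 6 hours 2 Cy5 spots each of *NDT80* and *IME2* exceeded 30000. Of 62 secretion and cell wall genes, 17.7% were higher and 12.9% lower, against 19.5% and 26.7% of all genes, with *EXG1*, a glucanase gene, at 2.64 ± 0.03, *FKS1*, glucan synthase, at 2.10 ± 0.03 and *OCH1*, a mannosyltransferase gene, at -2.01 ± 0.15.

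The third array, after 40 minutes in YPD, shares the 20-minute array with any further change, so its values are set beside the first change only. Of the 1179 genes that were higher at 20 minutes, 1106 lay within 2-fold of that level at 40 minutes, 24 were at least 2-fold higher still and 49 were at least 2-fold lower again. Of the 1617 lower genes, 1536 lay within 2-fold, 45 were lower still and 36 were higher again. These genes were picked by their level at 20 minutes, and genes that first passed 2-fold at 40 minutes were not counted. The share of all genes within 2-fold between 20 and 40 minutes was not counted either, so these counts have no background to compare with. Over all genes the log2 ratios of these 2 arrays had a Pearson correlation of 0.96, and the median change between them was -0.07.

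Some lists and genes differed further between 20 and 40 minutes. Ribosomal proteins had median log2 ratios of -2.37 at 6 hours, 1.60 at 20 minutes and 2.20 at 40 minutes, whereas the small subunit processome had -0.36, 3.17 and 2.92. Sulfur amino acid genes had 0.08, 1.49 and 0.46. *MET17* had -2.25, 1.31 and -0.83. *OLE1* had -0.21, -4.09 and -0.97, which puts its 40-minute level nearer to that at 6 hours. *IDH1* had -0.24, -3.59 and -5.09.

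**Figure D5:**
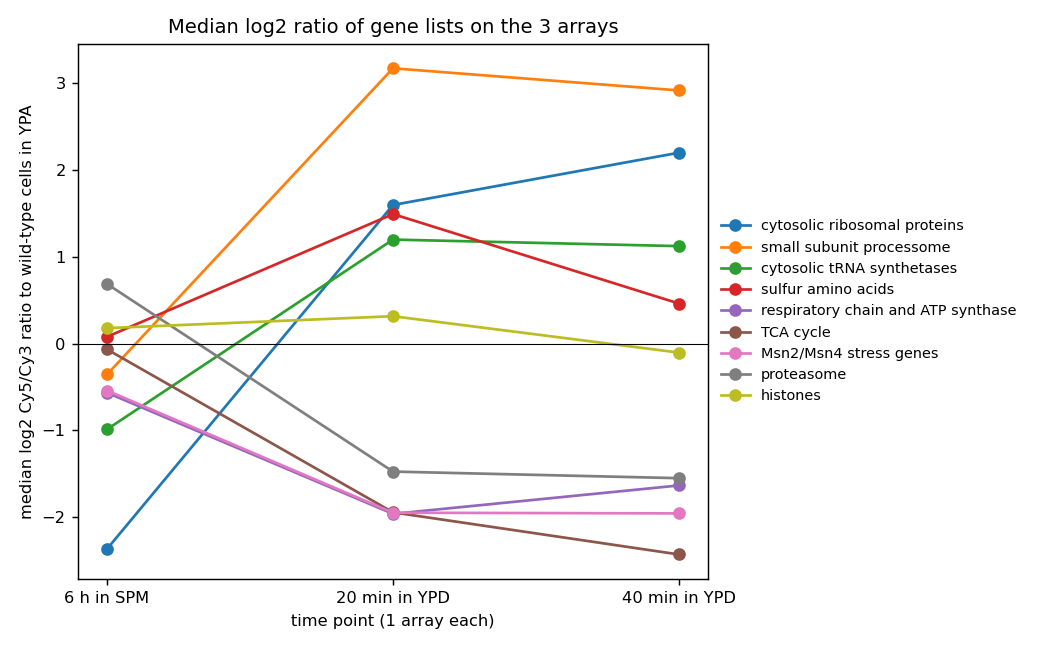
Median log2 Cy5/Cy3 ratio to wild-type cells in YPA (y axis) of 9 gene lists on the arrays of 6 hours in SPM, 20 minutes in YPD and 40 minutes in YPD (x axis, 1 array each); lines join the medians of a list. The small subunit processome goes through -0.36, 3.17 and 2.92, the ribosomal proteins through -2.37, 1.60 and 2.20, and the proteasome through 0.69, -1.48 and -1.55.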

How the data were processed

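RNA of Δ*sum1* diploids was measured on 3 arrays of PCR products, of which those of 20 minutes in YPD and 6 hours in SPM are compared here. The deposited scanner files hold an intensity and a local background per spot and channel, quantified by the authors with QuantArray and not yet background subtracted. A second deposited table holds the log2 ratios the authors made from them by background subtraction, a floor, median centring, omission of bad spots and averaging of duplicates, and it was used to recover the floors and as an alternative. Starting from the intensities, each spot's background was subtracted and any signal below the floor was raised to that floor, log2(Cy5/Cy3) was centred on the median over gene spots and the 2 spots were averaged, with none omitted. Python 3.11.15, pandas 2.3.3, numpy 2.4.6 and, for normexp with an offset of 50 and loess, limma 3.58.1 in R 4.3.3 were used, and the scripts were tested on simulated data.

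Gene names follow the R64 annotation, which matched 5663 of 6218 array genes. The 40 gene lists, and the choice of this comparison, were made with earlier results of these data known, and some lists were tidied after values were seen. Named genes are the 15 largest changes in each direction, up to 3 per list and direction, and *SUM1*, *CLN3*, *BCY1*, *HXT1*, *PCK1*, *IME1* and the regulators of meiosis. Of the genes this rule picks, 2 are not reported here. Other genes, such as *HXT7*, *RPC37*, *RPS21B*, *SSB1*, *IMD2* and *IMD3*, were named after their values were seen. Products of near-identical genes share signal, and the arrays do not separate strands. With 1 array per time point only the SD between spots was available, and precision is limited by the number of arrays. Results were recomputed under 16 other settings. Counts of settings given for a single gene leave out the one that centres the changes on the median of all genes. A planned count of promoter motifs was not run, and no sequence is printed.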

Additional observations from a re-analysis of the deposited data

How the results depend on the processing

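With 1 array per time point no replicate could be left out, and no paired analysis was possible because no group has replicates. Under the other settings, 54 all-gene values moved by less than the spread used (0.23 for medians, 1.5 times for counts) and 4 by more. Of the list medians, 372 moved by less and 147 by more. Of the values of named genes, 1628 moved by less than 0.23 and 722 by more. No called value changed its direction. The medians of hexose transport, glycolysis, NAD synthesis, permeases, phosphate and zinc, DNA replication and histones changed sign under at least 1 setting. So did those of membrane lipids, the spore wall, nutrient signalling, haploid and secretion genes, and all of these medians were inside 2-fold. With the mean of the buffer spots as the floor, which left 5229 genes, 691 genes were higher and the median over all genes was -0.70. The list medians were then 2.25 for the small subunit processome, 2.76 for large subunit assembly, 3.35 for ribosomal proteins, -0.26 for hexose transport, -1.72 for acetate use and gluconeogenesis, -1.90 for the respiratory chain, -1.81 for stress genes and 0.039 for amino acid synthesis. Loess normalization gave 3.29 for ribosomal proteins, -0.035 for hexose transport, -1.80 for acetate use, -1.66 for the respiratory chain, -1.83 for stress genes and 0.33 for amino acid synthesis. Normexp with loess gave 3.36, -0.028, -1.80, -1.67 and -1.84 for the first 5 of these. Cy5 alone gave -1.19 for stress genes, and leaving out dim genes gave 3.19 for the processome. Omitting spots above 30000 removes genes by their own level at either time, and the medians of the genes left were 1.25 for 14 ribosomal proteins, -0.25 for 15 hexose transport, -0.53 for 10 acetate use, -0.85 for 16 respiratory and -0.99 for 37 stress genes. Centred on the median of all genes, which is then 0, they were 3.70 for the processome, 3.58 for large subunit assembly, 4.16 for ribosomal proteins, 0.58 for hexose transport, -0.99 for acetate use, -1.04 for the respiratory chain, -1.14 for stress genes and 0.85 for amino acid synthesis. A limit of 3-fold left 744 lower genes. Why the other values moved was not tested.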

Other observations

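Of the 1179 genes that were at least 2-fold higher in YPD, 667 (56.6%) belonged to none of the gene lists, as did 1212 (74.95%) of the 1617 lower genes, against 74.2% of all genes. Among the higher ones, chosen here after their values were seen, *ESC1*, which encodes a protein of the nuclear periphery that serves silencing, changed by 5.06, *DYN1*, the dynein heavy chain gene, by 4.74 and *PRP16*, a splicing helicase gene, by 4.64. Among the lower ones *SPO7*, a subunit gene of a nuclear membrane phosphatase, changed by -4.07, *ETR1*, a gene of mitochondrial fatty acid synthesis, by -4.03, *RAD52*, a recombination gene, by -3.44, *CDC48*, which encodes an ATPase that extracts ubiquitinated proteins, by -3.24 and *SUC2*, the invertase gene, by -3.05. Of 512 array genes without a match in the annotation, 102 were at least 2-fold higher (19.9%, against 19.5% of all genes). Another 93 were lower (18.2%, against 26.7%), and the median was -0.05. Of the 512 genes, 151 had a floored spot. Among the higher ones was YGR160W, which overlaps *NSR1* and cannot be told apart from it on these arrays, with a change of 5.80 and both Cy5 spots at the floor at 6 hours.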
